A study of Mus musculus with 4 samples.

Results

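The 10 genes of telomere protection and of telomerase were described in a map of chromatin near PML bodies in mouse embryonic stem cells. The genes were Terf1, Terf2, Terf2ip, Rif1, Tert, Pot1a, Acd, Tinf2, Ctc1 and Rtel1. They were chosen by name, and all 10 were found among the 21938 protein-coding genes of the GENCODE M21 annotation of mm10. The map was made by ALaP-seq, in which the peroxidase APEX, fused to PML by a knock-in, biotinylates the chromatin around it when hydrogen peroxide is supplied. All samples were E14 cells with the APEX-PML knock-in, grown with leukemia inhibitory factor, CHIR99021 and PD0325901. In 2 samples hydrogen peroxide was given, and in the other 2 it was omitted as the negative control. The deposited list of 26496 peaks is, by its name, a merge over replicates, and it gives positions only. It holds no height, no score and no value of a single sample, so there is no spread between replicates, no comparison with the control and no depth behind any peak. The study set out to profile genomic regions associated with PML bodies. Whether a peak reflects closeness to these bodies was not tested.

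Telomeres are protected by shelterin, a complex that keeps chromosome ends from being treated as breaks. TRF1 (Terf1) and TRF2 (Terf2) bind the double-stranded TTAGGG repeats, RAP1 (Terf2ip) is carried by TRF2, TIN2 (Tinf2) links the parts, and TPP1 (Acd) joins POT1 (Pot1a), which binds the single strand, to TIN2 and recruits telomerase. Tert encodes the reverse transcriptase of telomerase, active in embryonic stem cells. Ctc1 encodes a subunit of the CST complex, which helps to fill in the complementary strand, Rtel1 a helicase that opens telomeric loops, and Rif1 a protein of replication timing and break repair. In cells that maintain telomeres without telomerase, telomeres gather at PML bodies. The peaks described here lie at the genes of these proteins, and nothing is said of the telomeric repeats themselves, since reads were mapped to a repeat-masked genome.

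Stretches upstream of 5 members, and the gap between Acd and its divergent neighbour, show how differently the peaks lay at the starts. All run 5′ to 3′ on the strand of the member, in lower case, with the bases inside a peak in capitals. They come from the RefSeq promoter table of GRCm38.p6, which matched 8 of the 10 members; Terf1 and Rif1 were not matched. The stretches hold no exon of a protein-coding gene, and that of the Acd gap comes from the table's entry for Pard6a. The whole stretch lay in a peak at Tert (chr13:73626661-73626910) and Tinf2 (chr14:55681821-55682067), 177 of 222 bases did at Pot1a (chr6:25809247-25809468), and none did at Ctc1 (chr11:69015661-69015910). At Terf2ip (chr8:112011109-112011209) the stretch, 100 of 101 bases in the peak, is intronic to the neighbouring gene Kars. It ends short of the Terf2ip start, unlike the other 4, which run up to the base before the gene start, so its share in the peak is not comparable with theirs. The gap of 45 bases between the starts of Acd and Pard6a (chr8:105701103-105701147) held no peak base.
Tert: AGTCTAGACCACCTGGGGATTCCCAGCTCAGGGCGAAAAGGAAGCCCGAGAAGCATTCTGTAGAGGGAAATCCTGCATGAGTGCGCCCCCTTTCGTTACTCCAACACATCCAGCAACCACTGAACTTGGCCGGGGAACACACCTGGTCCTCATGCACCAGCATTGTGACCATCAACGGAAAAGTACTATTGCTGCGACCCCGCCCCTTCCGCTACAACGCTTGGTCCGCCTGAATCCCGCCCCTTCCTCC
Tinf2: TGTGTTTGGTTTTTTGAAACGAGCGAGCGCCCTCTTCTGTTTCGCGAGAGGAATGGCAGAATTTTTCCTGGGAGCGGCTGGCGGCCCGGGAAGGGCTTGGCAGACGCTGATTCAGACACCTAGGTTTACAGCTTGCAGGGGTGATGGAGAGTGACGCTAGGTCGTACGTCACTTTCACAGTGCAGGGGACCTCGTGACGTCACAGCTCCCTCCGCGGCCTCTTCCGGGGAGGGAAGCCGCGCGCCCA
Pot1a: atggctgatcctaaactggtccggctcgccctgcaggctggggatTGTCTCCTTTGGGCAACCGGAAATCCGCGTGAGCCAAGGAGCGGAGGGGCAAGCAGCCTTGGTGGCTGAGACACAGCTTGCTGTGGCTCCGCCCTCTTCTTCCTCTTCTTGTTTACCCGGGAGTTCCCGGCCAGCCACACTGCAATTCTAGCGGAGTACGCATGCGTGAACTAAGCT
Terf2ip: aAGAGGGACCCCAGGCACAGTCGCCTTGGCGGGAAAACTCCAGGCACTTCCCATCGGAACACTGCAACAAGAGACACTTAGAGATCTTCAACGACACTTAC
Ctc1: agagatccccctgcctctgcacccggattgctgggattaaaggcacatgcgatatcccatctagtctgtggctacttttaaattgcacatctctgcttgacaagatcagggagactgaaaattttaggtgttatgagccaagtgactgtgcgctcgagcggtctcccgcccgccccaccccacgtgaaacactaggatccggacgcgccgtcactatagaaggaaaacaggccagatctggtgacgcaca
Acd to Pard6a: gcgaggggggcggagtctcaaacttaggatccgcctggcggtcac

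Peaks were present at the starts of nearly all of the genes. A peak within 1 kb of the 5′ end of the gene model, called the gene start below, was found at 9 of 10 members, against 38.4% of all protein-coding genes. Acd was the member without one. Of the 6 shelterin genes, 5 had such a peak, as did all 4 of Rif1, Tert, Ctc1 and Rtel1. Such peaks were more frequent at starts with a higher ratio of observed to expected CpG, and all 10 members lay above the median of all genes. This ratio, in the sequence up to 500 bp from the gene start, had a median of 0.76, against 0.55 over all genes. It ran from 0.58 at Tert to 0.92 at Terf2. Divided into 10 classes of this ratio, the members fell into classes 6 to 10, in which 53.4 to 72.3% of genes had a start peak. The share was highest in class 9 and was 68.9% in class 10. The mean of these class shares over the 10 members was 64.4%. The count of 9 members therefore lies closer to its background once this CpG ratio is taken into account, and with 10 genes the remainder was not tested.

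**Figure D1:**
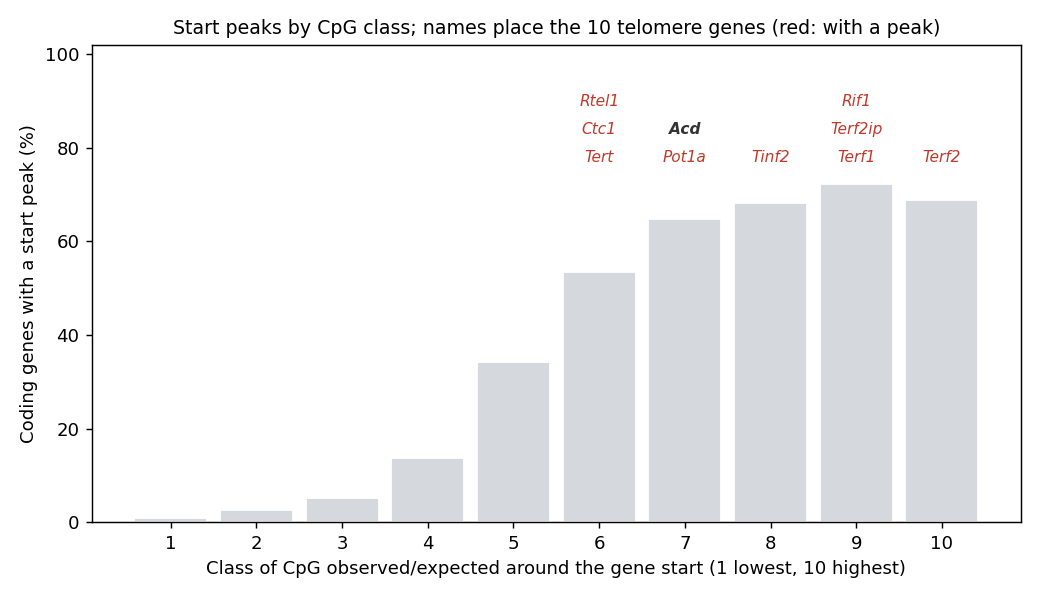
Share of protein-coding genes with a peak within 1 kb of the gene start (y axis, percent) in 10 classes of CpG observed/expected (x axis, class 1 lowest). The names mark the class of each of the 10 telomere genes, in red with a start peak and in black without; all lie in classes 6 to 10, and Acd in class 7 is the member without a peak.

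Terf1, Terf2 and Terf2ip had narrow start peaks. Terf1 had 2, neither of which covered the gene start at position 15805646 of chromosome 1. The upstream one was 119 bp wide (chr1:15805072-15805190) and ended 456 bp before the start, and the other, of 148 bp (chr1:15806324-15806471), began 678 bp after it in intron 1. Terf2 had a peak of 160 bp (chr8:107096448-107096607) over its gene start, of which 60 bases lay upstream. Terf2ip, the gene of the TRF2 partner, had one of 143 bp (chr8:112011110-112011252) that ended 146 bp before its start. Its gene start lies 75 bp from that of Kars, which encodes lysyl-tRNA synthetase and is read from the other strand. The peak lay on the Kars side, so the list does not place it at Terf2ip rather than at Kars. Among the 8427 genes with a start peak, 12.0, 13.5 and 17.2% had a narrower widest one than Terf2ip, Terf1 and Terf2. With only peaks of at least 223 bp, the median width of the list, these 3 genes had no start peak, and 6 of 10 members had one against 24.7% of all genes.

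Wider start peaks lay at Tinf2 and Pot1a. Tinf2 had a peak of 425 bp (chr14:55681650-55682074), with 33 CpG dinucleotides, over its gene start and also over the start of the antisense transcript Gm49067 on the other strand. Pot1a had a peak of 300 bp (chr6:25809124-25809423) over its start. Acd, the gene of the protein between these partners, had its nearest peak 6977 bp from the gene start. It lies 46 bp from the start of Pard6a, a cell polarity gene that had no start peak either. The CpG ratio at Acd was 0.73, in class 7, the class of Pot1a, and 5.85% of its window was repeat-masked, within the range of 0 to 31.0% over the members. RefSeq places the Acd start 126 bp further upstream. With the nearest peak 6977 bp from the gene start, neither this start nor that of Pard6a could have one within 1 kb.

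Rif1 carried the widest start peak of the members. It measured 812 bp (chr2:52072026-52072837), held 37 CpG dinucleotides and reached 5 bases past the gene start at 52072832, so nearly all of it lay upstream. Of all genes with a start peak, 97.0% had a narrower one. A further peak of 336 bp (chr2:52071318-52071653) ended 1179 bp before the start, just outside the window. Tert had a peak of 316 bp (chr13:73626626-73626941) that covered its gene start and the whole upstream stretch shown above. Rtel1 had one of 389 bp (chr2:181319598-181319986) over its start. The peak of Ctc1, of 409 bp (chr11:69015998-69016406), began 87 bp after the gene start, covered 3 further annotated starts of the gene and had its midpoint in intron 1. Ctc1, Terf1 and Terf2ip were thus the members whose start peak did not cover the gene start. A peak covered it in 6 of 10 members, against 23.0% of all protein-coding genes and 59.8% of those with a start peak. The median of the widest start peak was 316 bp over the 9 members with one and 281 bp over all genes with one, with quartiles of 185 and 422 bp.

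**Figure D2:**
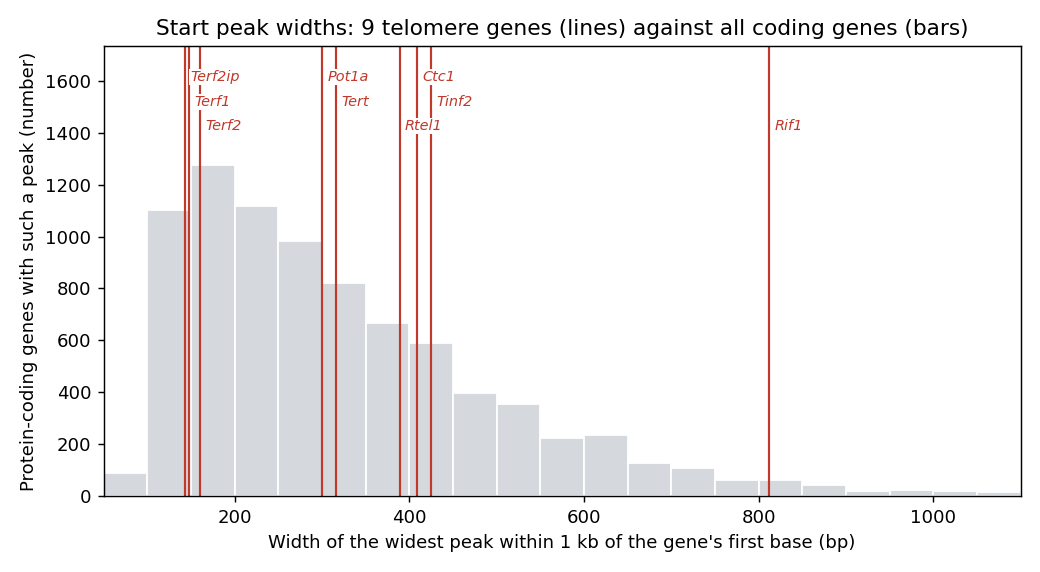
Width of the widest peak within 1 kb of the gene start (x axis, bp) for all protein-coding genes with such a peak (bars, number of genes per 50 bp; widths above the axis range are not drawn), with the 9 telomere genes as lines. Terf2ip, Terf1 and Terf2 sit between 143 and 160 bp, Rif1 alone at 812 bp, and the others between 300 and 425 bp.

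The annotation gives the members 84 transcripts with 78 distinct starts, and 40 of these starts had a peak within 1 kb, against 34.5% of the distinct starts of all protein-coding genes. Starts near each other share peaks, so they are not independent. Peaks were found at 39 of the 43 starts within 1 kb of the gene start, against 50.1% over all genes. The 4 without one were those of Acd. The share of 50.1% is not matched for CpG content, and all 10 members had CpG-rich starts. Of the 35 starts further inside the genes, 1 had a peak, against 12.2% over all genes. These inner starts belong mostly to noncoding models: 28 of them have no transcript annotated as protein-coding. Counted over all starts, 9 of 10 members had a peak at some start, against 42.4% of genes, so no inner start added a member. The median number of distinct starts was 7 per member, against 3 over all genes. The share of 42.4% is matched neither for this nor for the CpG ratio.

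The inner start with a peak was that of a processed transcript that begins 7848 bp inside Pot1a. Its peak of 251 bp (chr6:25801320-25801570) covered that start and lies in intron 2 of the longest coding transcript. Of the bases of this peak, 72.5% are repeat-masked in the RefSeq assembly. Coding transcripts that begin inside the genes had none. In Rif1, 2 such starts lay 38624 and 39296 bp from the nearest peak, and those in Pot1a and Tinf2 lay 3303 and 1575 bp from it. In Rtel1, 3 such starts lay 4033, 9547 and 9342 bp from a peak.

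**Figure D3:**
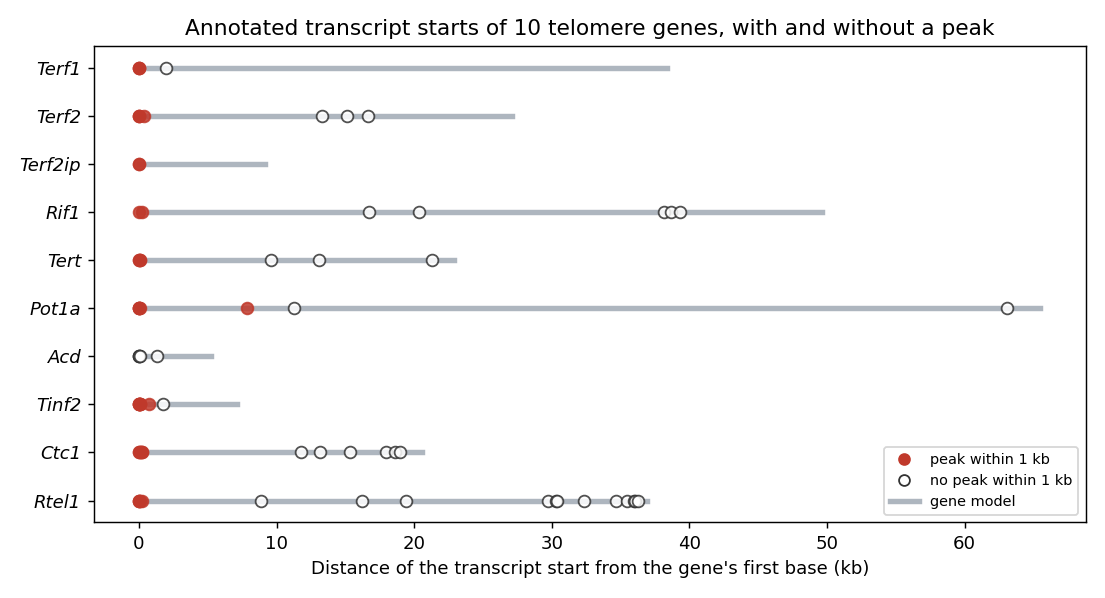
Annotated transcript starts of the 10 telomere genes by distance from the gene start (x axis, kb), filled red where a peak lies within 1 kb and open where none does; grey lines are the gene models. Filled starts gather at the gene start of 9 genes, and a single one, in Pot1a, lies further inside.

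Introns held few peaks, though not fewer per 10 kb than over all protein-coding genes. Away from all annotated starts, 2 of 10 members had an intronic peak, against 14.2% of protein-coding genes. In Terf1 it was a peak of 131 bp (chr1:15815113-15815243) in intron 3, 9.5 kb from the gene start and 57.3% repeat-masked. In Rtel1 it was one of 293 bp (chr2:181332650-181332942) in intron 8, 13.1 kb from the start, which holds 0 CpG dinucleotides and is 10.6% repeat-masked. Rtel1 also had a peak of 217 bp (chr2:181322232-181322448) with its midpoint in coding exon 3. The introns of the members add up to 221 kb, which gives 0.0903 peaks per 10 kb, against 0.0654 over all protein-coding genes; the first value rests on 2 peaks. The introns of Rif1 (39.0 kb) and Tert (17.2 kb) held none.

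Within 50 kb of the gene start and outside its 1 kb window, all 10 members had at least 1 peak, against 61.0% of protein-coding genes. Together they had 38 such peaks, with a median of 2.50 per member against 1 over all genes. The median number of other protein-coding starts in that window was 3.50 over the members, against 2 over all genes, but it varied: Terf1 and Pot1a had 0, Rif1 and Tert had 1, and Tinf2 had 9. Peaks within 1 kb of another coding start made up 39.5% of the 38, and the same share, 39.5%, over all genes. With each peak counted at its nearest coding gene only, they fell at 15 neighbours. Among these were Clptm1l 22.8 kb upstream of Tert, Enkd1 7.1 kb upstream of Acd, and Nip7 and Pdf downstream of Terf2. The remaining 23 include 4 inside the members and 19 away from any start counted here, with widths from 99 to 447 bp and a median of 181 bp.

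**Figure D4:**
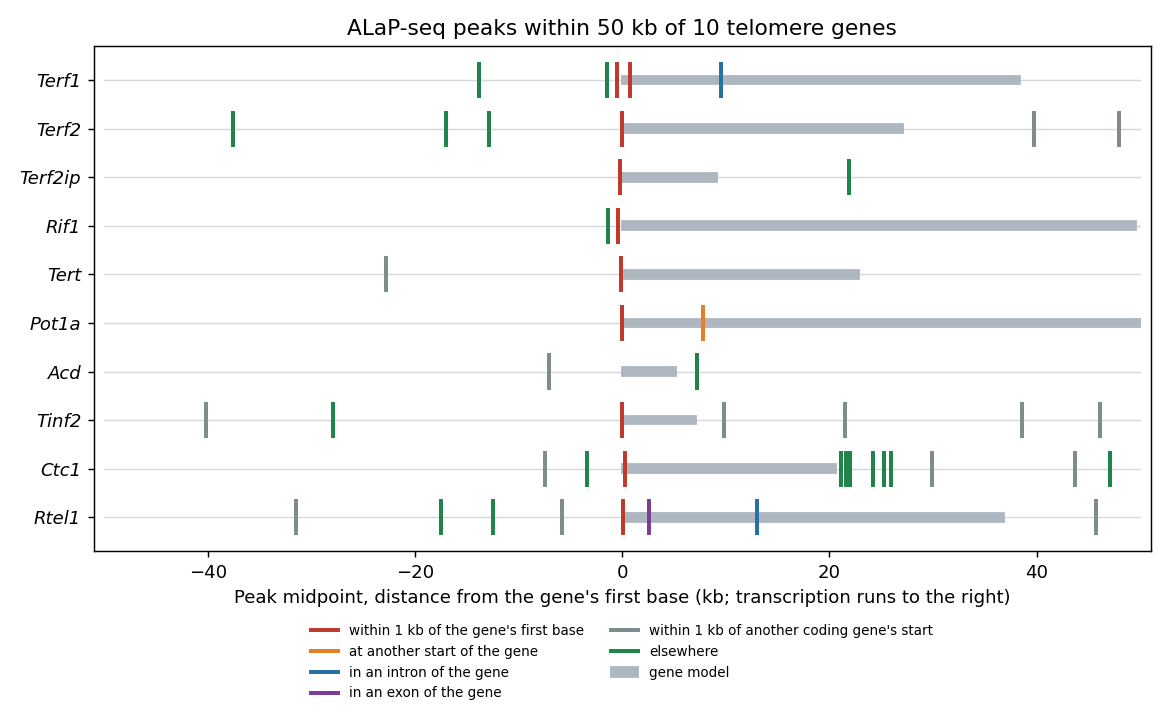
Peaks within 50 kb of the gene starts of the 10 telomere genes, drawn at their midpoints by distance from the gene start (x axis, kb, transcription to the right; grey bars are the gene models, and that of Pot1a runs past the axis). Colours give the place of each peak: 9 genes have a peak at the start, Acd has none, and Ctc1 has a row of 6 peaks just past its end.

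The loci differed widely in these surroundings. Ctc1 had 11 peaks within 50 kb, more than 97.8% of protein-coding genes. Of these, 6 lay in the 9.17 kb between the end of Ctc1 and the start of Aurkb, which encodes a mitotic kinase. They were 123 to 411 bp wide and spanned 4.94 kb, and the nearest to Aurkb ended upstream of it, with its midpoint 3822 bp from that start. Aurkb itself had a start peak of 316 bp (chr11:69045624-69045939), and Pfas, a gene of purine synthesis upstream of Ctc1, one of the same width (chr11:69008256-69008571). Without Ctc1 the other 9 members had 27 peaks within 50 kb, a mean of 3.00 per gene in place of 3.80, against 2.14 over all genes.

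Rtel1 had 7 peaks and Tinf2 had 6 in this range. At Rtel1 a peak of 774 bp (chr2:181313518-181314291) lay in Stmn3, with its midpoint 596 bp from the start of that stathmin family gene, and 2 more, of 213 and 184 bp, lay 12.4 and 17.5 kb upstream of Rtel1. At Tinf2, 5 of the 6 lay at starts of other genes. The widest, of 806 bp (chr14:55671606-55672411), lay over the start of Gmpr2, 9.8 kb downstream of the Tinf2 start. Its midpoint also lies within Nedd8, so the list does not place it at Gmpr2 alone. The sixth, of 244 bp, lay in Tgm1, a transglutaminase gene.

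Terf2 had 5 peaks, 3 of them upstream at 12.9, 17.0 and 37.6 kb with no coding start within 1 kb. The nearest of these was the widest, 420 bp (chr8:107109208-107109627). The peak at 17.0 kb is 60.1% repeat-masked, and the other upstream peaks 0 and 10.8%. Terf1, with no other coding start within 50 kb, had 3: the intronic one, one of 393 bp (chr1:15791579-15791971) at 13.9 kb upstream and one of 145 bp at 1.4 kb upstream. The peak at 1.4 kb is 71.0% repeat-masked and that at 13.9 kb 41.2%. Acd had 2, one at Enkd1 and one of 149 bp at 7.2 kb downstream, past the end of Acd and with its midpoint in Carmil2. Terf2ip, Rif1, Tert and Pot1a had 1 each, and 39.0% of protein-coding genes had fewer. For Terf2ip it was a peak of 357 bp (chr8:112033089-112033445), 21.9 kb from the gene start and past the gene's end. The single one of Tert was the Clptm1l start peak, so the gene body of Tert and the 50 kb after its start held no peak beyond that of the start.

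No peak of the 48 at these loci had a copy elsewhere in the assembly at 95% identity over 80% of its length. Short words known as binding motifs were counted on both strands in the RefSeq promoters of 300 bp, 250 before and 50 after the start. The GC box GGGCGG was found in 6 of the 8 members matched, against 35.7% of all promoters in the table, which are not matched for CpG content. At Tert 2 GC boxes lay in the peak, 12 and 49 bp upstream of the gene start. Those of Terf2, Pot1a and Rtel1 also lay in a peak, and those of Terf2ip and Ctc1 did not. The E box CACGTG was found in Ctc1, 68 bp upstream and outside its peak, against 7.15% of promoters, and the NRF1 core CGCATGCG in Pot1a, 15 bp upstream and inside its peak, against 1.87%. CCAAT was found in Terf2 and Acd, against 37.4% of promoters. The ETS core CCGGAAGT (3.89% of promoters), the YY1 core ATGGCGGC (2.24%), the octamer ATTTGCAT (1.74%) and 2 tandem copies of TTAGGG (0.0122%) were in none of the 8. The window of Acd, set by its RefSeq start, does not reach the gap shown above. A match is a string of letters and says nothing of a bound factor.

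Most other telomere genes also had start peaks. Of 31 further genes of the same pathways, 25 had a peak at the gene start, read against the same 38.4% of all protein-coding genes; 1 of the 31, Terc, is noncoding. Of the 30 coding ones, 27 had starts in CpG classes 6 to 10, and 24 had a start peak, beside a mean class share of 61.8%. The median of their widest start peak was 298 bp. All 3 remaining shelterin and CST genes had one, namely Pot1b, Stn1 and Ten1, so the genes of all 3 CST subunits carried start peaks. Of 11 genes for the telomerase RNA, its proteins and its assembly, 9 had one. They were Terc, the RNA itself, Nop10, Nhp2, Gar1 (470 bp), Wrap53, Naf1, Parn, Pinx1 and Tep1, and Dkc1 on chromosome X and Shq1 had none. Of 10 helicase, nuclease and end-processing genes, 9 had one, with Slx4 (741 bp), Mre11a (493 bp), Nbn (491 bp) and Dclre1b (464 bp), the gene of the shelterin-bound nuclease Apollo, the widest. Blm, Wrn, Dna2, Rad50 and Smg6 also had one and Fen1 did not. Tnks had a start peak and Tnks2, its paralog, had none, though each had 1 intronic peak. Daxx (436 bp), Zbtb48 and Hmbox1 had one, and Atrx on chromosome X and Zscan4c had none. Away from starts, 3 of the 31 had an intronic peak, against 14.2% of all protein-coding genes, and the median number of peaks within 50 kb was 1, equal to that of all genes.

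The starts of 7 cell type marker genes were also looked up. All 3 embryonic stem cell markers, Pou5f1, Sox2 and Nanog, had a start peak. Of the 4 markers of other cell types, Alb, Cd3d, Myod1 and Col1a1, 0 had one. The share over all protein-coding genes was 38.4%, not matched for CpG content. These counts show only whether the starts have a peak, and the cell type was not tested by them.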

How the data were processed

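The authors trimmed the reads with Trimmomatic, mapped them with bowtie2 version 2.3.5.1 to repeat-masked mm10 and removed blacklisted and greylisted regions with bedtools, per the series' design text. How peaks were called, at which threshold, whether against the control, and how replicates were merged is not given in the sources used here. Each line of the authors' file lists chromosome, start and end. Mapping to a masked genome limits peaks in repeats. Starts were converted to 1-based positions, and every peak fell within the chromosome lengths of GRCm38.p6, the NCBI name of the mm10 assembly.

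Gene starts, transcript starts, exons and introns came from GENCODE M21, with genes counted by identifier and without the mitochondrial chromosome. A peak counted at a start when any base of it lay within 1 kb of that start, and peaks elsewhere were placed by their midpoint. Shares and medians of all protein-coding genes are the background, and no test was made, since the list holds no samples. Copies of peaks were sought with BLAST+ 2.17.0. Counting was tested on simulated data: it equalled a direct count at 200 of 200 genes with planted peaks. The alternatives were the window, the overlap rule, peaks of at least 223 bp, coding transcripts only, and other distances. All 10 members are described. Other genes are named mainly where their start is nearest to a peak of a member. A list of other telomere genes is given by presence of a start peak, with widths for the 6 widest. The members and lists were chosen with earlier results of these data known.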

Additional observations from a re-analysis of the deposited data

How the results depend on the processing

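Each result was recounted under the settings that apply to it, which gave 38 values. Of these, 32 stayed within 1.5 times of the reported one, or within 1 SD over the members for the median width, and 6 did not. A fall from 9 to 6 members with a start peak counts as within this limit. With only peaks of at least 223 bp, the median width of the list, the intronic peaks fell to 1 and the peaks within 50 kb to 17. In that set 6 of 10 members kept a start peak, against 24.7% of all genes; Terf1, Terf2 and Terf2ip joined Acd without one. Counting coding transcripts only gave 21 starts with a peak, out of 29, since fewer starts are counted. The peaks within 50 kb became 17 within 20 kb, 62 within 100 kb, and 23 without those within 1 kb of a protein-coding start. Under windows of 500 bp and 2 kb and under the midpoint rule, 9 of 10 members had a start peak. Leaving out Ctc1, and counting exons of coding transcripts only, were chosen after seeing the data. No paired analysis was possible because the list names no sample, and for the same reason no replicate could be left out. The depth behind the peaks is unknown here, so a missing peak, as at Acd, is a missing entry in the list and not shown to be absence of signal.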
